A study of Mus musculus with 13 samples.

Results

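Transcripts of 10 genes that write, copy, erase or extend repressive chromatin marks were followed in 5 sorted T cell populations. The genes were taken by name from the 24417 named genes of the count tables, and all 10 were found in both tables and passed the filter on low counts in each experiment. They are *Dnmt1* and *Uhrf1* (copying of DNA methylation), *Dnmt3a* and *Dnmt3b* (new DNA methylation), *Tet1*, *Tet2* and *Tet3* (oxidation of methylated cytosine), and *Ezh1*, *Ezh2* and *Suz12* (Polycomb repressive complex). They were picked by name and not by a threshold on measured values, with earlier results of these data known. In the GENCODE M21 annotation of GRCm38, *Dnmt1* spans chr9:20907209-20959888 on the minus strand and *Uhrf1* spans chr17:56303321-56323486 on the plus strand. *Dnmt3a* spans chr12:3806007-3914443 on the plus strand and *Dnmt3b* spans chr2:153649450-153687730 on the plus strand. Of the Tet genes *Tet1* spans chr10:62804570-62908996 on the minus strand, *Tet2* spans chr3:133463679-133545139 on the minus strand and *Tet3* spans chr6:83362373-83459084 on the minus strand. *Ezh1* spans chr11:101191115-101226463 on the minus strand, *Ezh2* spans chr6:47530139-47595341 on the minus strand and *Suz12* spans chr11:79993106-80034123 on the plus strand.

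Dnmt1 restores methylation on the daughter strand after replication, and Uhrf1 recognizes the half-methylated sites and recruits Dnmt1 to them. Dnmt3a and Dnmt3b methylate sites anew, and the Tet dioxygenases oxidize methylcytosine, a step towards its removal. In the Polycomb complex Ezh1 or Ezh2 methylates histone H3 at lysine 27 and Suz12 is a scaffold subunit. In Treg cells, demethylated DNA at the *Foxp3* locus is known for keeping *Foxp3* expressed through division, and Ezh2 is known to be induced upon Treg activation.

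The libraries came from cells sorted from spleen and lymph nodes of C57BL/6 mice. The sort described in the paper kept cells positive for TCRβ and CD4 and left out those with CD8 or an NK cell marker. The male experiment compared 3 libraries of control Treg cells (*Foxp3*DTR-GFP/y *Cd4*creERT2), 3 of rescued Treg cells (*Foxp3*LSL/y *Cd4*creERT2) and 2 of Treg “wannabes” (*Foxp3*LSL/y *Cd4*wt), which all received the Cre-activating drug 4-hydroxytamoxifen (4-OHT) at 14 days of age and were sorted at 21 days. *Foxp3*LSL is a null allele in which a Thy1.1 reporter and a STOP cassette precede *Foxp3*, and “wannabes” are the T cells that transcribe this allele without making Foxp3. The *Cd4*creERT2 allele makes a 4-OHT-activated Cre recombinase in cells expressing *Cd4* and was present in the control and rescued mice only, so rescued Treg cells differed from “wannabes” in the Cre allele, and control Treg cells in both the Cre and the *Foxp3* allele. The female experiment compared 3 libraries of resting “wannabes” (*Foxp3*LSL/WT *Cd4*wt, whose other X chromosome still gives Foxp3-sufficient Treg cells) with 2 libraries of activated “wannabes” (*Foxp3*LSL/DTR *Cd4*wt, whose Treg cells carry the diphtheria toxin receptor). Both female groups received diphtheria toxin 7, 5, 3 and 1 days before analysis and are labelled as 9 to 11 weeks old.

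Between 25556783 and 36659638 reads per library were counted on named genes, and values are given as counts per 1000000 reads (CPM) after TMM normalization within each experiment. The male libraries varied more, with a common biological coefficient of variation of 0.510, against 0.171 for the female libraries. *Foxp3* stood at 865, 909 and 1109.7 CPM in rescued, 167, 215 and 252 CPM in control Treg cells and 84.2 and 99.8 CPM in “wannabes”, and *Thy1*, to which reads of the Thy1.1 reporter can map, stood at 196 and 327 CPM in “wannabes” against 36.4 to 46.7 CPM in both male Treg populations. The summed level of 6 T cell markers was 4214 to 6760 CPM in every library, while that of 5 B cell markers reached at most 44.1 CPM. In sorted populations, fewer cells of one state and less RNA per cell cannot be told apart. The libraries are described as biological replicates, and the p-values measure the spread between these 2 to 3 libraries per population.

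A proliferation index was used to note which genes varied with cell division. It is the log2 of the summed CPM of 93 S phase and G2/M genes from which the genes under study and their listed partners were left out. In control Treg cells its mean was 12.74 ± 0.30 (SD, n = 3). Rescued Treg cells had 13.12 ± 0.28 (SD, n = 3), and “wannabes” had 13.57 ± 0.53 (SD, n = 2). In the female mice it was 12.61 ± 0.02 (SD, n = 3) in resting and 13.49 ± 0.02 (SD, n = 2) in activated “wannabes”. The 3 control libraries lay below both “wannabe” libraries and the activated above the resting libraries, while rescued Treg cells overlapped with both other male populations.

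The promoters printed here belong to the 4 genes that rose in activated “wannabes”. They run from 250 bases before to 50 bases after a RefSeq transcript start on GRCm38.p6, and capitals mark matches to E2F words (TTTCCCGC, TTTGGCGC, TTTCGCGC or TTTGCCGC, on either strand), a motif of cell cycle promoters. *Dnmt1* lies on the minus strand and the window shown, chr9:20952574-20952873, is 1 of its 3. The *Uhrf1* window, chr17:56304063-56304362 on the plus strand, is 1 of 2, and *Ezh2* (chr6:47594981-47595280, minus strand) and *Suz12* (chr11:79992856-79993155, plus strand) have 1 each.
Dnmt1: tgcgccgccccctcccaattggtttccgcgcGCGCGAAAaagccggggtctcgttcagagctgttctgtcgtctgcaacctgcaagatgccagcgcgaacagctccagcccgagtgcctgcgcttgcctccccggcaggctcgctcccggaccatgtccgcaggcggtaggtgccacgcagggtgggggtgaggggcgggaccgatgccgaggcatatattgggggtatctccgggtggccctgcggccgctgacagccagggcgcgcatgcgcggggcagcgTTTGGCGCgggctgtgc
Uhrf1: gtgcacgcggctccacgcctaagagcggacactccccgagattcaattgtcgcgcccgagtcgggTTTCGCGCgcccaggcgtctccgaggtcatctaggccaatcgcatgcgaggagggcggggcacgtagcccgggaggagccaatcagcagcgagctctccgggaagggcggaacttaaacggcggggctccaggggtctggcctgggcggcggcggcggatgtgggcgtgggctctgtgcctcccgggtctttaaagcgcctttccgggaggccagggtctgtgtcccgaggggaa
Ezh2: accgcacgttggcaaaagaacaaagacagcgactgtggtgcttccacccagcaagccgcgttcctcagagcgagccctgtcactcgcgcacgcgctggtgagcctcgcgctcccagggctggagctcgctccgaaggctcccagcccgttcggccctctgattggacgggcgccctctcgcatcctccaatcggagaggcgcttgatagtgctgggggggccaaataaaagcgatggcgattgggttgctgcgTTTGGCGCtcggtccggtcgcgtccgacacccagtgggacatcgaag
Suz12: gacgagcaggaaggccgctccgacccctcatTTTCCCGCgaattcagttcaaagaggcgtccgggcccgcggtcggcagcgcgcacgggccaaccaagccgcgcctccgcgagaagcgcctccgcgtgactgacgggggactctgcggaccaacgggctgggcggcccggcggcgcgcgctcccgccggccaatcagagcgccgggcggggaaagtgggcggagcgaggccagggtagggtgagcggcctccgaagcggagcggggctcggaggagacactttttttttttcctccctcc
The *Dnmt1* window held 2 matches, which began at -219 and 34 relative to the start, the *Uhrf1* window 1 at -185, the *Ezh2* window 1 at 4 and the *Suz12* window 1 at -219. The other windows of *Dnmt1* and *Uhrf1* held 0 matches, and those shown were chosen because they hold one. No match overlapped another. Such a word was found in 2.26% of 32851 RefSeq promoter windows of the same length. That share is per window, while *Dnmt1* had 3 windows and *Uhrf1* had 2. No window of *Dnmt3a*, *Dnmt3b*, *Tet1*, *Tet2*, *Tet3* or *Ezh1* held a match. Each word contains the letters CG. The windows shown held 33, 33, 31 and 41 such pairs, against a median of 7 over all windows. Those of the genes without a match held 17 to 57. Enrichment was not tested. A match is a run of letters and not a measured binding site.

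The comparison of activated with resting “wannabes” asks how these genes responded in cells lacking Foxp3 when the Treg cells around them were depleted. *Uhrf1*, *Suz12*, *Ezh2* and *Dnmt1* rose and *Ezh1* fell, so that 4 of 10 genes were higher and 1 was lower. In the same test 11.3% of 13166 genes were higher and 11.2% were lower. The median log2 fold change of the 10 genes was 0.16, against -0.01 over all genes tested.

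*Uhrf1* stood at 27.9, 38.0 and 27.5 CPM in resting and at 118 and 117 CPM in activated “wannabes”. Its 2 activated libraries were 3.76-fold above the resting mean in the fit (log2 fold change 1.91 ± 0.15 SE, edgeR adjusted p = 0.00076), and its change was the largest of the 10 genes in this comparison. *Dnmt1*, its partner at replicating DNA, stood at 137, 133 and 170.2 CPM in resting and at 246 and 266 CPM in activated cells. The groups did not overlap, and the rise of *Dnmt1* was 1.74-fold (log2 fold change 0.80 ± 0.12 SE, edgeR adjusted p = 0.0063).

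*Ezh2*, the catalytic subunit typical of dividing cells, stood at 52.0, 53.0 and 51.2 CPM in resting and at 109.6 and 105 CPM in activated cells. The resting libraries lay close together, and the rise was 2.06-fold (log2 fold change 1.04 ± 0.08 SE, edgeR adjusted p = 0.00063). *Suz12* stood at 77.1, 33.6 and 38.1 CPM in resting and at 115 and 134 CPM in activated cells. Resting replicate 1 stood apart from the others, and the 2.51-fold rise had a wider error (log2 fold change 1.33 ± 0.34 SE, edgeR adjusted p = 0.036). *Ezh1*, the catalytic subunit typical of non-dividing cells, moved the other way, from 154, 142 and 158 CPM in resting to 110.3 and 114 CPM in activated cells. Its groups did not overlap either, and its fall gave a ratio of 0.74 (log2 fold change -0.44 ± 0.08 SE, edgeR adjusted p = 0.013).

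The calls of *Uhrf1* and *Ezh2* held without any 1 library, with adjusted p from 0.00050 to 0.015. The call of *Suz12* was lost without resting replicate 2 (adjusted p = 0.062), resting replicate 3 (0.078), activated replicate 1 (0.139) or activated replicate 2 (0.196), that of *Ezh1* without activated replicate 1 (0.124) or 2 (0.101), and that of *Dnmt1* without activated replicate 2 (0.071). lincRNA models on the opposite strand share 174 exonic bases with *Ezh2* and 178 with *Suz12*, and without a stated strand setting their reads cannot be told apart.

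The remaining 5 genes did not pass the test. *Dnmt3a* lay between 57.9 and 86.3 CPM in resting and at 90.8 and 87.2 CPM in activated cells (adjusted p = 0.232), and *Dnmt3b*, at 17.6 to 21.5 CPM in resting cells, stood at 16.6 and 16.7 CPM in activated cells (adjusted p = 0.331). *Tet1*, *Tet2* and *Tet3* overlapped between the groups, with log2 fold changes of 0.03, -0.03 and -0.17.

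S phase and G2/M genes moved with this comparison. Of the 39 S phase genes 30 rose and none fell (median log2 fold change 1.20), and of the 54 G2/M genes 47 rose and none fell (median 2.53), against a median of -0.01 over all genes. With the index as a covariate 0 of the 10 genes passed the edgeR test and 0 had an unadjusted p under 0.05. The index and the population were almost the same variable in these 5 libraries, and they cannot be told apart. The share over all genes in that fit is not given here, so its counts of 0 say nothing about these genes. Of the 5 B cell markers 1 of 2 tested rose, with sums of 9.80 to 12.1 CPM in resting and 22.5 to 24.7 CPM in activated libraries, and of the 4 plasma cell markers 1 of 2 tested fell, from sums of 9.20 to 26.3 to sums of 0.73 to 1.03 CPM, with *Tnfrsf17* at 0 in both activated libraries. The part of these cells in the result was not tested.

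**Figure D1:**
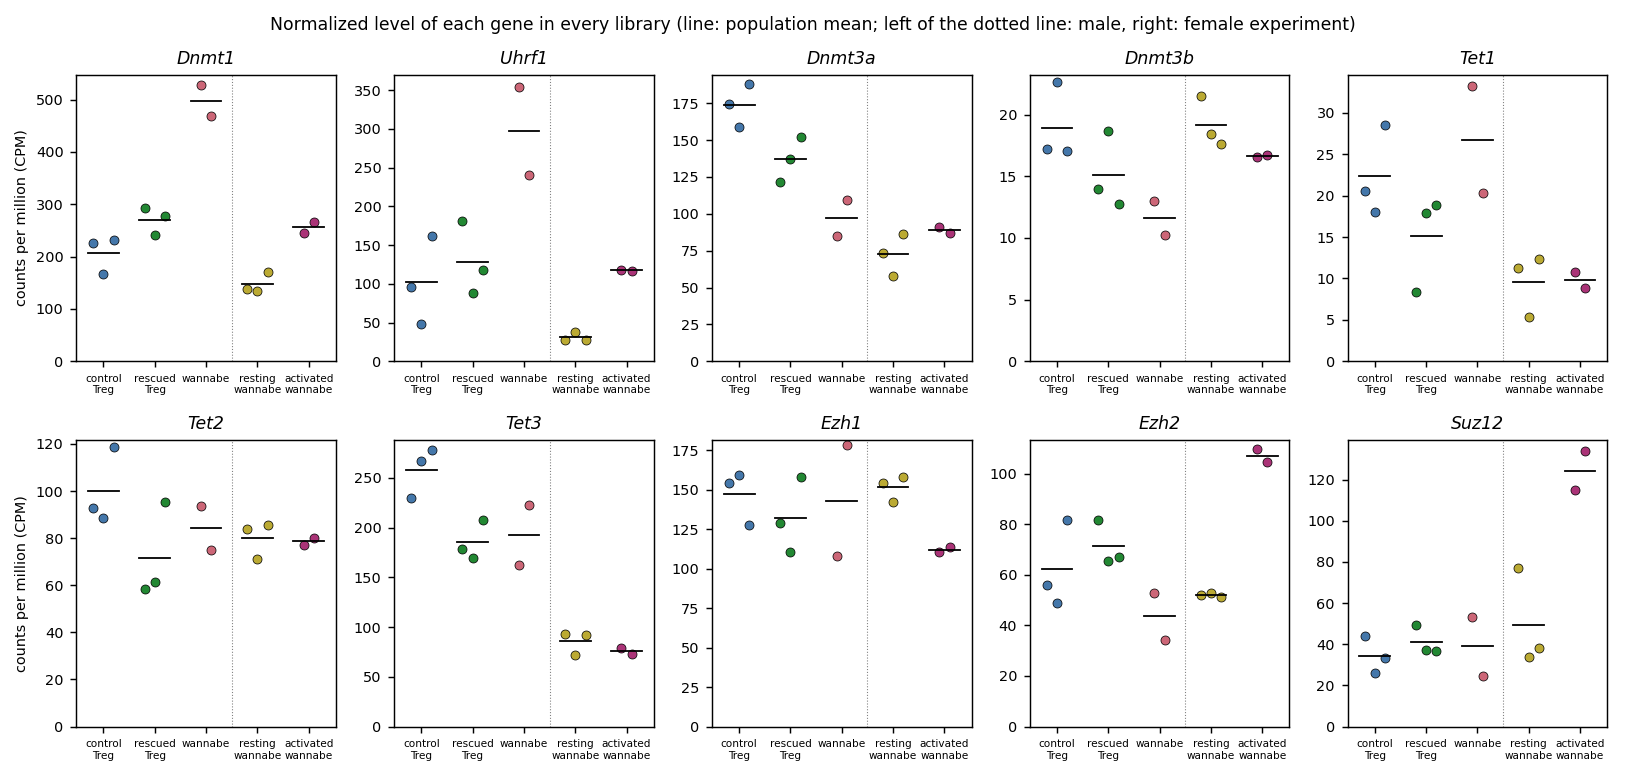
CPM of the 10 genes (vertical axes, starting at 0) in each of the 13 libraries, by population, with a line at each population mean and a dotted line between the male and female experiments. *Dnmt1* and *Uhrf1* are highest in the 2 “wannabe” libraries of male mice, *Ezh2* and *Suz12* in the 2 activated “wannabe” libraries, and *Dnmt3a* and *Tet3* in control Treg cells.

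In the male experiment, control Treg cells were compared with “wannabes” to set Foxp3-sufficient cells of healthy mice against Foxp3-deficient cells of diseased mice. *Dnmt1* and *Uhrf1* were lower in control Treg cells and *Dnmt3a* was higher. This was 1 gene higher and 2 lower of 10, where 9.92% of 14925 genes were higher and 6.27% lower. The median log2 fold change was 0.14 over the 10 genes and 0.09 over all genes. Proliferation genes moved with this comparison, in which 15 of 39 S phase genes were lower and 0 higher (median log2 fold change -0.84) and 27 of 54 G2/M genes were lower and 1 higher (median -1.63). With the proliferation index as a covariate in the edgeR fit, the call of *Dnmt1* held (log2 fold change -0.90, adjusted p = 0.027), and those of *Uhrf1* (-0.35, adjusted p = 0.584) and *Dnmt3a* (0.66, adjusted p = 0.130) were lost. Without the covariate these values were -1.26, -1.54 and 0.84. The index of the control libraries lay below that of both “wannabe” libraries, so this fit extends along the index beyond any shared level. It therefore cannot tell population and proliferation apart.

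*Dnmt1* stood at 225, 166 and 232 CPM in control Treg cells and at 528 and 468 CPM in “wannabes”. Both “wannabe” libraries lay far above the highest control library, and the ratio was 0.42 (log2 fold change -1.26 ± 0.18 SE, edgeR adjusted p = 0.0014). *Uhrf1* stood at 96.0, 48.5 and 161 CPM in control Treg cells and at 354 and 241 CPM in “wannabes”. The control libraries spread widely but stayed below both “wannabe” libraries, and the ratio was 0.34 (log2 fold change -1.54 ± 0.42 SE, edgeR adjusted p = 0.028). *Dnmt3a* stood at 174, 159 and 188 CPM in control Treg cells and at 84.8 and 109.6 CPM in “wannabes”. The groups did not overlap and the rise was 1.79-fold (log2 fold change 0.84 ± 0.19 SE, edgeR adjusted p = 0.012).

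Single libraries also decided 2 of these calls. That of *Uhrf1* was lost without control replicate 1 (adjusted p = 0.092), control replicate 2 (0.059) or “wannabe” replicate 1 (0.120), and that of *Dnmt3a* without “wannabe” replicate 1 (0.058). An antisense gene shares 133 exonic bases with *Dnmt3a*, which also has a processed pseudogene on chromosome 3, so its level carries that uncertainty. Of the 4 tested myeloid markers 1 was higher in control Treg cells, with sums of 4.50 to 10.9 CPM against 0.98 to 1.66 CPM in “wannabes”, where *Csf1r*, *Cd14*, *S100a8*, *S100a9* and *Siglech* were at 0. Of the 4 erythroid markers 1 was lower, with sums of 2.64 to 6.77 against 3.38 to 11.8 CPM, as was 1 of 2 tested NK cell markers, with sums of 0.42 to 1.32 against 4.61 to 6.83 CPM and *Ncr1* and *Klra8* at 0 in both populations. Their part in the result was not tested.

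*Dnmt3b* (17.0 to 22.6 CPM in control Treg cells, 13.03 and 10.2 CPM in “wannabes”) and *Tet3* (230 to 278 CPM against 162 and 223 CPM) also did not overlap, at adjusted p of 0.154 and 0.145. A lack of overlap, here and in the other comparisons, describes 2 to 3 libraries per population and is not a test. Its share over all genes is not given. *Ezh2* had a log2 fold change of 0.51 ± 0.27 SE (adjusted p = 0.229), *Suz12* of -0.18 ± 0.34 SE, *Tet1* of -0.26 ± 0.39 SE, *Tet2* of 0.25 ± 0.25 SE and *Ezh1* of 0.04 ± 0.24 SE.

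Rescued Treg cells were compared with “wannabes” to ask how the genes stood 7 days after the STOP cassette could be removed. *Dnmt1* was lower in rescued Treg cells and no gene was higher, which was 1 of 10 where 4.06% of 14925 genes were lower and 10.0% were higher. *Dnmt1* stood at 293, 241 and 277 CPM in rescued Treg cells, all below the 528 and 468 CPM of the “wannabes”. Its ratio was 0.54 (log2 fold change -0.88 ± 0.18 SE, edgeR adjusted p = 0.0070), and the call held without any 1 library. In this comparison 7 of 39 S phase genes were lower and 1 higher (median log2 fold change -0.62), as were 5 and 1 of 54 G2/M genes (median -0.79), against a median of 0 over all genes. With the index as a covariate *Dnmt1* had -0.68 (edgeR adjusted p = 0.020).

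*Uhrf1* stood at 181, 87.7 and 117 CPM in rescued Treg cells, again below both “wannabe” libraries. Its ratio of 0.43 (log2 fold change -1.21 ± 0.42 SE) had an adjusted p of 0.080 with edgeR and of 0.021 with DESeq2. By edgeR the adjusted p was 0.034 without control replicate 2 and 0.049 without control replicate 3. It was 0.117 without control replicate 1, and 0.054, 0.236 and 0.185 without rescued replicates 1, 2 and 3. Without “wannabe” replicate 1 the log2 fold change was -0.91, and without replicate 2 it was -1.50. *Dnmt3a* stood at 121, 137 and 152 CPM in rescued Treg cells, above both “wannabe” libraries (log2 fold change 0.49 ± 0.18 SE, adjusted p = 0.103). *Ezh2* stood at 81.6, 65.6 and 66.9 CPM in rescued Treg cells, above the 52.9 and 34.2 CPM of the “wannabes” (log2 fold change 0.71 ± 0.27 SE, adjusted p = 0.115). *Tet1*, at 8.41, 17.9 and 18.9 CPM in rescued Treg cells and 33.2 and 20.3 CPM in “wannabes”, did not overlap either (log2 fold change -0.83 ± 0.39 SE, adjusted p = 0.188). *Tet2*, *Tet3*, *Ezh1*, *Dnmt3b* and *Suz12* overlapped, with log2 fold changes between -0.23 and 0.38.

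Rescued and control Treg cells, both of which make Foxp3, were compared last. By edgeR 0 of 10 genes passed the test, where 1.43% of 14925 genes were higher and 0.864% lower. DESeq2 also called 0, where it called 8.16% of all genes. An unadjusted edgeR p under 0.05 was found for 2 of 10, near the 16.1% of all genes. These were *Dnmt1*, whose rescued libraries all lay above the control libraries (log2 fold change 0.38 ± 0.16 SE, adjusted p = 0.269, and 0.22 with the index as a covariate), and *Tet3*, whose rescued libraries at 179, 169.5 and 207 CPM all lay below the 230, 267 and 278 CPM of the controls (log2 fold change -0.48 ± 0.16 SE, adjusted p = 0.170). *Dnmt3a* also had no overlap, with the lower values in rescued cells (log2 fold change -0.34 ± 0.16 SE, adjusted p = 0.328). *Tet1* and *Tet2* had log2 fold changes of -0.57 ± 0.35 SE and -0.48 ± 0.22 SE with overlapping libraries. Of the proliferation genes 31 of 39 S phase genes (median log2 fold change 0.27) and 51 of 54 G2/M genes (median 0.90) had positive values. By edgeR 0 of them passed the test, while 8 S phase and 20 G2/M genes had an unadjusted p under 0.05 and DESeq2 called 1 and 6. The 3 male comparisons share libraries in pairs, so their fold changes are not independent of each other.

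**Figure D2:**
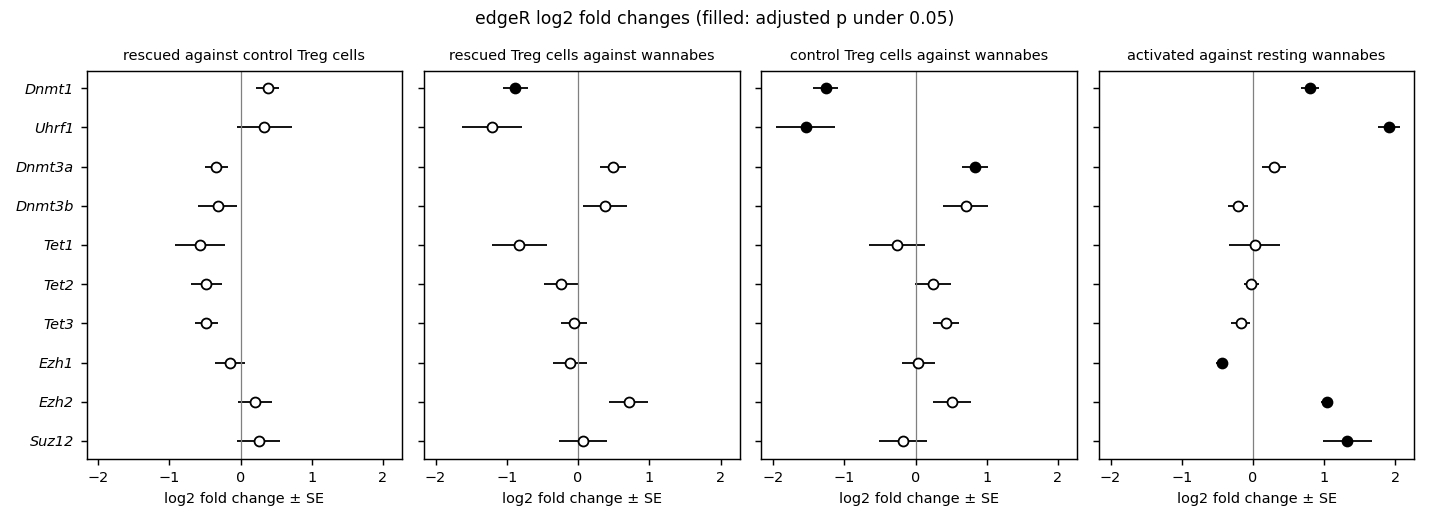
Log2 fold change with its SE (horizontal axes) of the 10 genes in the 4 comparisons, filled where the edgeR adjusted p was under 0.05. No gene is filled for rescued against control Treg cells, *Dnmt1* alone for rescued Treg cells against “wannabes”, *Dnmt1*, *Uhrf1* and *Dnmt3a* for control Treg cells against “wannabes”, and *Dnmt1*, *Uhrf1*, *Ezh1*, *Ezh2* and *Suz12* for activated against resting “wannabes”.

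The order of levels in the male mice ran from “wannabes” down to rescued and then to control Treg cells for *Dnmt1*, with no overlap between neighbors. For *Dnmt3a* the order was the opposite, again without overlap. For *Uhrf1* the “wannabes” were apart from rescued Treg cells, which overlapped with control Treg cells. For *Tet3* the control Treg cells were apart from “wannabes”, which overlapped with rescued Treg cells. In the other 6 genes neighbors overlapped. These orders are descriptions without a test.

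Per kilobase of exon, the genes differed widely in level. In control Treg cells *Dnmt1* stood at 28.1 ± 4.92 CPM per kilobase (SD, n = 3), *Uhrf1* at 23.9 ± 13.3 and *Ezh1* at 19.8 ± 2.31, ahead of *Tet3* at 15.5 ± 1.51, *Dnmt3a* at 10.4 ± 0.87 and *Ezh2* at 9.31 ± 2.58. *Suz12* stood at 6.96 ± 1.80, *Tet2* at 5.93 ± 0.97, *Dnmt3b* at 3.71 ± 0.62 and *Tet1*, the lowest of the 10 on this scale, at 1.45 ± 0.35. *Ezh1* exceeded *Ezh2* on this scale in each of these 3 libraries. In activated “wannabes” *Ezh2*, at 16.4 and 15.7 CPM per kilobase, reached the level of *Ezh1*, at 14.8 and 15.3, whereas in resting “wannabes” *Ezh2* lay between 7.67 and 7.93 and *Ezh1* between 19.1 and 21.3. Among the Tet genes *Tet3* was the highest per kilobase in all male libraries, by population means of 15.5, 11.1 and 11.5 in control, rescued and “wannabe” cells, while *Tet2* (4.75 ± 0.45) and *Tet3* (5.13 ± 0.73) were within their spread in resting “wannabes” (SD, n = 3).

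To note which genes varied with proliferation apart from the differences between populations, the mean of each population was subtracted and the remaining deviations were correlated with those of the index over all 13 libraries. *Ezh2* (Pearson r = 0.92, exact permutation p = 0.020, Spearman rho = 0.74, p = 0.149), *Uhrf1* (r = 0.83, exact permutation p = 0.0093, rho = 0.82, p = 0.024) and *Dnmt1* (r = 0.69, exact permutation p = 0.0023, rho = 0.75, p = 0.0035) had the highest values. These are 3 of 10 genes with a two-sided p under 0.05 and a positive r, where 4.26% of 12972 genes were so with a positive and 3.08% with a negative r. After Benjamini-Hochberg adjustment over these genes the 3 values became 0.63, so none of the relations passed, and the 864 permutations within populations allow no p below 0.0012. *Uhrf1* kept a p under 0.05 without any 1 library. *Ezh2* lost it without any 1 of the 6 control or rescued libraries (r from 0.90 to 0.97) and *Dnmt1* without any 1 of the 3 control libraries (r from 0.54 to 0.70), where fewer permutations are possible. *Suz12* followed with r = 0.62 (exact permutation p = 0.106, rho = 0.64), and *Ezh1* had the lowest value, r = -0.68 (exact permutation p = 0.257, rho = -0.57).

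Without the 2 libraries farthest in the index, both of them “wannabes” of male mice, r was 0.88 for *Ezh2*, 0.92 for *Uhrf1* and 0.74 for *Dnmt1*. For *Suz12* it was 0.39 and for *Ezh1* -0.35, both smaller in size than over all libraries but with the same sign. Over all 13 libraries *Tet3* (r = -0.45), *Dnmt3a* (-0.32), *Tet2* (0.22), *Dnmt3b* (-0.13) and *Tet1* (0.07) had weaker values, with exact permutation p from 0.433 to 0.831. Without the 2 farthest libraries r was -0.59 for *Dnmt3b* and between -0.22 and -0.0029 for the others of these genes. The index deviated by at most 0.02 among the female libraries, so these values describe the male libraries.

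Across populations *Ezh2* parted from *Dnmt1* and *Uhrf1*. The “wannabes” of male mice had the highest mean index, although replicate 2 (13.20) lay below both activated libraries and rescued replicate 1 (13.44), and the highest *Dnmt1* and *Uhrf1*, but the lowest mean *Ezh2*, 43.6 ± 13.2 CPM (SD, n = 2) against 107.1 ± 3.4 CPM (SD, n = 2) in activated “wannabes” of female mice. That contrast lies between experiments, in which sex, age, treatment and library set cannot be told apart. Within the male mice, with the index as a covariate in the edgeR fit, *Ezh2* was higher in rescued Treg cells than in “wannabes” (log2 fold change 1.14, adjusted p = 0.0072) and higher in control Treg cells than in “wannabes” (1.25, adjusted p = 0.025). In the same fit *Uhrf1* had -0.54 (adjusted p = 0.226) in rescued Treg cells against “wannabes”. The index of the 3 control libraries lay below that of both “wannabe” libraries, so the values for control Treg cells in this fit extend along the index beyond any shared level. Without the covariate *Ezh2* had 0.51 (adjusted p = 0.229) in control and 0.71 (adjusted p = 0.115) in rescued Treg cells against “wannabes”. With “wannabe” replicate 2 also left out these log2 fold changes were 0.18 and 0.39, and with replicate 1 left out instead they were 0.86 and 1.06.

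**Figure D3:**
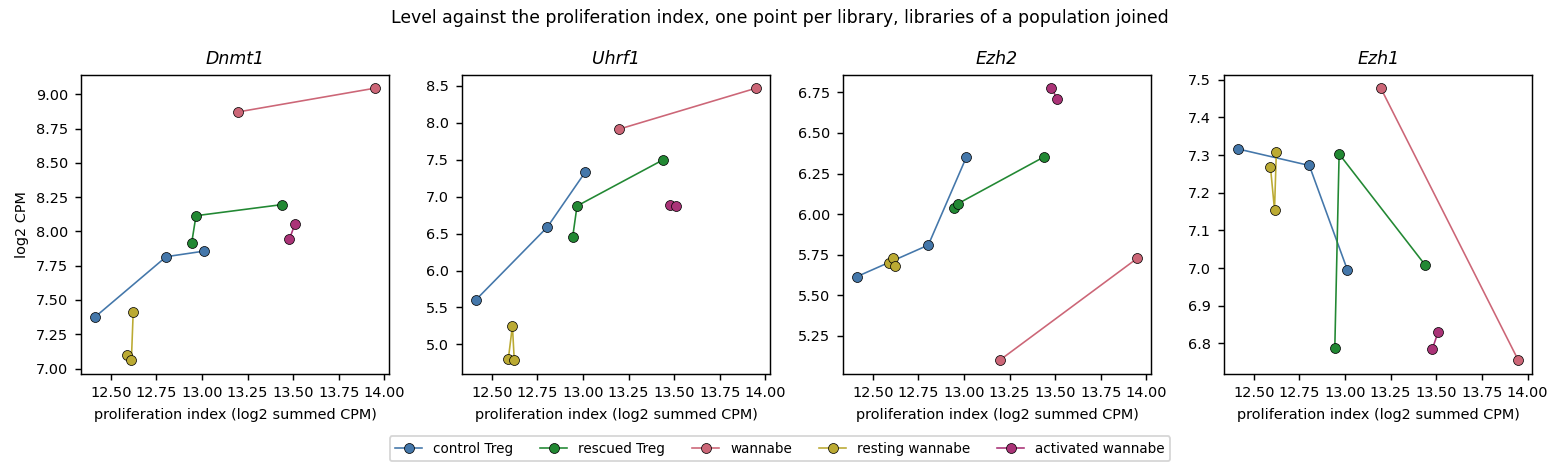
Log2 CPM of *Dnmt1*, *Uhrf1*, *Ezh2* and *Ezh1* (vertical axes) against the proliferation index (horizontal axes, log2 of summed CPM), 1 point per library and with the libraries of a population joined. Within the male populations *Ezh2* is higher in the libraries with the higher index, and the “wannabes” lie below all rescued Treg cells. The index of the control libraries is below that of both “wannabe” libraries.

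The change of each gene from control to rescued Treg cells was also set against its change from resting to activated “wannabes”. By edgeR the difference passed the test for 0 of 10 genes, where 0.803% of 15201 genes were higher and 0.730% lower, and DESeq2 also called 0, where it called 5.54% of all genes. For 4 of 10 genes, and 13.8% of all genes, the unadjusted p was under 0.05, all 4 with the lower value in the male mice: *Uhrf1* (-1.57 ± 0.53 SE, adjusted p = 0.187), *Ezh2* (-0.83 ± 0.30 SE, adjusted p = 0.220), *Dnmt3a* (-0.63 ± 0.24 SE, adjusted p = 0.255) and *Suz12* (-1.06 ± 0.48 SE, adjusted p = 0.350), on the log2 scale. The populations in these 2 changes differ in sex, age and treatment, which cannot be told apart from the difference.

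Partners of these enzymes were read from 6 lists with 63 genes. Of 9 tested partners of DNA methylation, 3 rose and 2 fell in activated “wannabes”, where 11.3% of all genes tested rose and 11.2% fell. The chromatin remodeler *Hells* (log2 fold change 1.53 ± 0.13 SE), its partner *Cdca7* (1.05 ± 0.12 SE) and the replication clamp *Pcna* (0.60 ± 0.08 SE) rose, and *Uhrf2*, the paralog of *Uhrf1*, fell (-0.82 ± 0.07 SE), as did *Mat2a*, which makes the methyl donor S-adenosylmethionine (-0.49 ± 0.11 SE). Their edgeR adjusted p lay between 0.00087 and 0.025. *Uhrf2* was higher in both Treg populations of male mice than in “wannabes”, with means of 76.7 CPM in control and 82.7 CPM in rescued Treg cells against 24.98 CPM (log2 fold changes 1.62 ± 0.28 SE and 1.73 ± 0.28 SE, edgeR adjusted p = 0.0034 and 0.0020). *Cdca7* was lower in both (-0.97 ± 0.19 SE and -1.21 ± 0.19 SE, edgeR adjusted p = 0.0061 and 0.0017), and so was *Ahcy*, which clears the by-product of methyl transfer (-1.12 ± 0.24 SE and -0.86 ± 0.24 SE, edgeR adjusted p = 0.0095 and 0.035). *Dmap1*, which binds Dnmt1, was lower in rescued Treg cells than in “wannabes” (-0.95 ± 0.25 SE, edgeR adjusted p = 0.025). In this list 1 of 9 genes was thus higher and 3 lower in rescued, and 1 higher and 2 lower in control Treg cells. Over all genes 10.0% were higher and 4.06% lower in rescued, and 9.92% and 6.27% in control Treg cells, so the 1 higher gene is near the background in both.

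Of 9 tested partners of the Polycomb complex, 3 rose and 1 fell in activated “wannabes”, the latter near the background of 11.2% (11.3% of all genes rose). The histone-binding subunits *Rbbp7* (0.46 ± 0.08 SE) and *Rbbp4* (0.27 ± 0.07 SE) rose from means of 310 and 399 CPM to 425 and 480 CPM, as did *E130012A19Rik*, also named *Epop* (1.15 ± 0.19 SE), while the accessory subunit *Phf1* fell (-0.92 ± 0.08 SE), with edgeR adjusted p between 0.00083 and 0.039. *Eed*, the subunit that binds methylated lysine 27, had 0.51 ± 0.24 SE (adjusted p = 0.162). In the male mice *E130012A19Rik* alone passed in this list, at 8.21 CPM in rescued Treg cells against 0.79 CPM in “wannabes” (3.37 ± 0.94 SE, edgeR adjusted p = 0.035).

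Among 18 tested subunits of the other Polycomb complex, which ubiquitinates histone H2A, 1 was higher in rescued and 2 in control Treg cells than in “wannabes”, and 1 rose and 1 fell in activated “wannabes”, where 10.0% and 9.92% of all genes were higher in the first comparisons and 11.3% rose and 11.2% fell in the last. *Cbx7* was higher in rescued (1.66 ± 0.34 SE, edgeR adjusted p = 0.0082) and control Treg cells (1.24 ± 0.34 SE, edgeR adjusted p = 0.029) than in “wannabes”, and *Ring1* in control Treg cells (0.87 ± 0.26 SE, edgeR adjusted p = 0.045). In activated “wannabes” *Kdm2b* rose (0.56 ± 0.09 SE, edgeR adjusted p = 0.0084) and the catalytic subunit *Rnf2* fell (-0.87 ± 0.10 SE, edgeR adjusted p = 0.0023). None of the 5 lysine 27 demethylases and H2A deubiquitinase subunits passed the edgeR test in these comparisons, while 2 had an unadjusted p under 0.05 in control Treg cells against “wannabes” (31.2% of all genes did) and 2 in activated against resting “wannabes” (38.1% of all genes), where DESeq2 called 1 (26.6% of all genes).

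Of 8 readers of methylated DNA 1 was higher in rescued, 1 higher and 1 lower in control Treg cells, and 1 fell in activated “wannabes”, beside shares over all genes of 10.0% higher in rescued, 9.92% higher and 6.27% lower in control Treg cells and 11.2% lower in activated “wannabes”. *Mbd3* was higher in rescued (2.05 ± 0.39 SE, edgeR adjusted p = 0.0053) and control Treg cells (1.43 ± 0.38 SE, edgeR adjusted p = 0.026) than in “wannabes” and *Mbd1* was lower in control Treg cells (-0.85 ± 0.19 SE, edgeR adjusted p = 0.011), while *Zbtb4* fell in activated “wannabes” (-0.74 ± 0.13 SE, edgeR adjusted p = 0.012). Of 10 tested partners of the Tet pathway, 3 rose and 1 fell in activated “wannabes”, the latter again near the background (11.3% of all genes rose and 11.2% fell). The glycosylase *Tdg*, which removes the oxidized bases, rose (0.83 ± 0.11 SE), as did *Gadd45g* (0.81 ± 0.11 SE) and *Idh2* (0.55 ± 0.10 SE), a mitochondrial source of the Tet cofactor, and *Gadd45a* fell (-0.94 ± 0.17 SE), with edgeR adjusted p between 0.0043 and 0.012. *Gadd45a* was higher in rescued (1.98 ± 0.41 SE, edgeR adjusted p = 0.0086) and control Treg cells (1.96 ± 0.41 SE, edgeR adjusted p = 0.0094) than in “wannabes”, and *Idh2* in rescued Treg cells (1.16 ± 0.20 SE, edgeR adjusted p = 0.0031). Between rescued and control Treg cells none of the 59 tested partners passed the edgeR test, while 11 had an unadjusted p under 0.05 (16.1% of all genes did) and DESeq2 called 5 (8.16% of all genes).

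**Figure D4:**
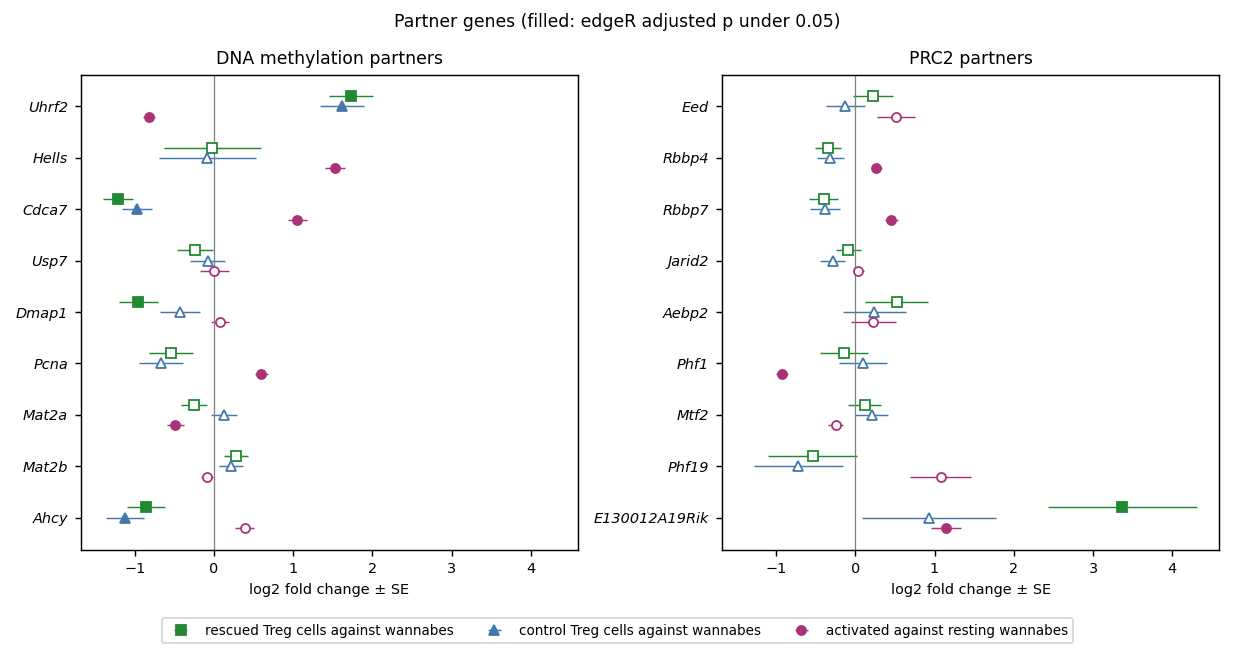
Log2 fold change with its SE (horizontal axes) of the tested partners of DNA methylation and of the Polycomb complex in 3 comparisons, filled where the edgeR adjusted p was under 0.05. *Uhrf2* lies to the right in both comparisons of male Treg cells with “wannabes” and to the left in activated against resting “wannabes”, and *Cdca7* the reverse.

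The genes whose pattern over the 13 libraries was most like that of a given gene were read from log2 CPM after subtracting the mean of each experiment, over 10240 genes. For *Uhrf1* these were *Orc1*, *Espl1*, *Cks1b*, *Asf1b* and *Tacc3*, with r from 0.97 to 0.98. For *Ezh2* they were *Mms22l*, *Dut*, *Fam83d*, *Ccna2* and *Rundc3b*, with r from 0.91 to 0.96. *Dnmt1* was most like *AI506816*, *Rfc2*, *4930579G24Rik*, *Ncaph2* and *Fen1*, with r from 0.96 to 0.97. The libraries share their depth and population in these values, which are descriptions without a test.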

How the data were processed

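The libraries hold RNA of sorted cells, 8 from the male and 5 from the female experiment, and were grouped by their labels. The design text of the series gives 3 activated and 2 resting libraries, whereas the titles and genotypes of the samples, which were followed, give 2 and 3. Count columns of the male experiment are named by reporter or allele and number, and were matched through the sort described in the methods: GFP to rescued Treg cells, Thy1 to “wannabes” and DTR to control Treg cells. The authors amplified RNA with SMART-Seq v4, aligned reads to GRCm38 with STAR 2.7.3a and took read counts per gene in R; the annotation and strand setting are not given in the sources used here. The deposited values are raw counts per gene. The 4 entries per table without a gene name (at most 0.0084% of counts) were left out. The reads carry no molecular identifiers.

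The members and gene lists were chosen with earlier results of these data known. Named partners are, per list and comparison, up to 3 rises and 3 falls past the test with a mean normalized count over 100. Each experiment was fitted with edgeR 4.0.16 in R 4.3.3 (TMM, filterByExpr, quasi-likelihood test, Benjamini-Hochberg adjustment over all genes tested, adjusted p under 0.05), and the difference of changes over all 13 libraries. The SE is the log2 fold change divided by the root of its F statistic. Log2 CPM used a prior count of 2. Proliferation genes are the cell cycle lists of Seurat 5.3.0 in mouse spelling, and the index was correlated by exact permutation within populations. Alternatives were DESeq2 1.42.0, its size factors in edgeR, no filter, fewer populations, a replicate block, the index as a covariate, and each library left out. Gene lengths are unions of GENCODE M21 exons and promoters are from RefSeq.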

Additional observations from a re-analysis of the deposited data

How the results depend on the processing

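Over 880 values of single genes under the alternatives, 803 kept their direction and their side of the threshold, 28 lost and 8 gained a call, and 41 changed direction, none of them past the threshold. The cause was not tested. For rescued Treg cells against “wannabes”, the count of 1 gene became 2, with *Uhrf1* added, under DESeq2, without a filter, with the replicate block and in a fit of only the 2 populations, and 2 with the index as a covariate, with *Ezh2* added. With 1 library left out it lay between 1 and 2, the count for control Treg cells against “wannabes” between 1 and 3 (main 3), that for activated against resting “wannabes” between 2 and 5 (main 5), and the number of genes correlated with the index between 1 and 3 (main 3); a lone library was assumed to vary like the others. The replicate numbers of the titles did not pair the libraries (r of deviations from -0.060 to 0.062 in 9 pairs), and the replicate block changed no other count of calls.

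With the index as a covariate the count for activated against resting “wannabes” became 0 by edgeR. Index and population were nearly collinear there, and the log2 fold changes were -4.39 for *Dnmt1*, -0.90 for *Dnmt3a*, 3.90 for *Dnmt3b* and 2.69 for *Tet3*. In the male mice the covariate turned *Uhrf1* (-0.19), *Ezh1* (0.080), *Ezh2* (-0.11) and *Suz12* (-0.17) in rescued against control Treg cells, *Ezh1* (-0.42) and *Suz12* (0.83) in control Treg cells against “wannabes”, and *Ezh1* (-0.0099) in the difference of the changes. *Ezh1* was -0.0010 with DESeq2 and -0.00066 with its size factors in control Treg cells against “wannabes”, and *Tet2* was 0.027 with the replicate block in activated against resting “wannabes”. Without the 2 libraries farthest in the index, r was -0.22 for *Tet1* and -0.0029 for *Tet2*.

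With 1 library left out, these log2 fold changes crossed 0. In rescued against control Treg cells *Uhrf1* ran from -0.0022 to 0.83. In rescued Treg cells against “wannabes” *Tet3* ran from -0.27 to 0.15, *Ezh1* from -0.43 to 0.25 and *Suz12* from -0.42 to 0.72. In control Treg cells against “wannabes” *Tet1* ran from -0.62 to 0.13, *Ezh1* from -0.28 to 0.40 and *Suz12* from -0.68 to 0.47. In activated against resting “wannabes” *Tet1* ran from -0.27 to 0.25 and *Tet2* from -0.10 to 0.022, and in the difference of the changes *Dnmt3b* ran from -0.26 to 0.068. The r with the index ran from -0.59 to 0.20 for *Dnmt3b*, from -0.22 to 0.55 for *Tet1* and from -0.0029 to 0.64 for *Tet2*. With the mean log2 CPM of its genes as the index, an alternative added after seeing the data, r was 0.95 for *Ezh2*, 0.94 for *Uhrf1* and 0.65 for *Dnmt1*, of which the third no longer had a p under 0.05. This also held for *Dnmt1* with S phase genes alone as the index (r = 0.65). The lowest count of any of the 10 genes in a library was 154, of *Tet1*.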

Other observations

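Other genes had patterns most like those of *Tet1*, *Tet2*, *Tet3* and *Ezh1* over the 13 libraries, from log2 CPM with the mean of each experiment subtracted. *Tet2* was most like *Hivep2* (r = 0.94), *Ikzf1* (0.94), *Tnpo1* (0.92), *Zfp189* (0.92) and *0610009O20Rik* (0.91). *Tet3* was most like *Mettl17* (r = 0.93), *Tmem120b* (0.93), *Rgl2* (0.92), *Slc17a9* (0.92) and *Sipa1l1* (0.91), and *Ezh1* most like *Zfp28* (r = 0.94), *Ap5b1* (0.90), *Ctns* (0.90), *Zfp212* (0.90) and *Xpc* (0.90). For *Tet1* the highest values were lower, from 0.84 for *Dnah8* to 0.86 for *LOC105246089*. These were the highest of 10240 genes and carry no test.

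*Cdca7*, a partner of the remodeler Hells, was the 1 gene of the 6 partner lists for which the difference of changes passed the edgeR test. The rescued minus control change was -1.28 ± 0.22 (SE, log2) relative to the activated minus resting change (edgeR adjusted p = 0.013).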
